A study of Mus musculus with 76 samples.

Results

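The proneural basic helix-loop-helix (bHLH) genes Neurog1, Neurog2, Neurod1, Neurod2, Neurod4, Neurod6 and Atoh1 and the Notch effector genes Hes1 and Hes5 were followed in the developing mouse diencephalon. They were taken by name as a list of proneural factors and Hes repressors, 9 of the 56923 genes in the count files. The study compared C57BL/6J wild type embryos with embryos homozygous for a humanized allele of hs754, in which a human sequence replaces its mouse counterpart on chromosome 13. The line was made by injecting Cas9, a guide and a repair plasmid into C57BL/6J embryos, and edited founders were backcrossed to C57BL/6J. The tissue was the diencephalon, the region that forms thalamus, hypothalamus and their neighbours, on embryonic days E11.5 and E17.5. Tissue of 6 littermates went into every E11.5 replicate and tissue of 3 into every E17.5 replicate, so that a value is a mean over embryos and over all cells of the tissue. Each of the 4 groups (wild type or humanized, E11.5 or E17.5) had 4 RNA libraries. For the histone marks H3K27ac, H3K4me3 and H3K27me3 there were 2 peak lists per genotype at the early stage and 3 at the late one, and for CTCF 3 per genotype at the late stage alone. Neurog1 is on the chromosome of the edited locus, upstream of it, and the other 8 genes are on other chromosomes.

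Proneural bHLH factors pair with E proteins and bind E-box sequences to turn on neuronal genes. They act in a relay: the neurogenins are made in dividing progenitors as these commit to the neuronal fate, and the NeuroD factors follow in newborn and maturing neurons. Notch signalling holds neighbouring cells in the progenitor state, in which Hes1 and Hes5, bHLH repressors, are switched on by the Notch intracellular domain with Rbpj and repress the proneural genes. Atoh1 specifies neurons of the rhombic lip and dorsal spinal cord, outside the diencephalon.

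The 16 RNA libraries held 16414369 to 24272569 reads on genes each. The diencephalon label was checked against 13 marker genes. Their summed level was 1767 to 2369 CPM (counts scaled to library size) in wild type libraries at E11.5 and 1645 to 1970 at E17.5, with none of the 13 at 0. Tcf7l2 alone gave 877 to 1329 CPM of this sum at E11.5 and 1019 to 1359 CPM at E17.5. Between the stages 3 of the 13 were called higher and 7 lower, beside 29.0% and 26.7% of all genes tested. Markers of the neighbouring telencephalon summed to 532 to 621 CPM and 494 to 613 CPM at these stages. The wild type E17.5 library of replicate 1 stood apart from the other 3 of its group. It held more endothelial (374 against 210 to 241 CPM), microglial (71.4 against 34.0 to 34.9 CPM) and red blood cell RNA (1020 against 242 to 457 CPM), more Tbr1 (43.8 against 23.9 to 27.8 CPM), and less neuronal marker RNA (4550 against 5681 to 6482 CPM). The stage and E17.5 genotype differences of the 9 genes are given with and without it.

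The neurogenins were the members that lost most transcript between the stages. Neurog1 lies at chr13:56398291-56399976 (minus strand, mm39) and Neurog2 at chr3:127426448-127429280 (plus strand). Neurog1, a determination factor of early neuronal lineages, stood at 23.5, 43.3, 30.5 and 37.3 CPM in the wild type libraries of E11.5 and at 0.889, 0.381, 0.149 and 0.379 CPM in those of E17.5. In humanized embryos the values were 36.7, 36.4, 40.3 and 35.1 CPM at E11.5 and 0.107, 0.425, 0.394 and 0.318 CPM at E17.5. The stages were far apart in both genotypes, and the E17.5 libraries held only 2 to 17 reads each on the gene. Neurog1 passed the filter on low counts through the E11.5 libraries alone, so the test result that follows is not independent of that filter. Neurog1 fell by 6.23 ± 0.43 (SE) on the log2 scale in wild type embryos (edgeR's quasi-likelihood test, Benjamini-Hochberg adjusted p = 1.37e-06) and fell by 6.90 ± 0.23 in humanized embryos (edgeR adjusted p = 5.47e-10). Because these are bulk samples, fewer cells that express a gene and less RNA in each of them cannot be told apart, here and for every member below.

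Neurog2, made in progenitors of the thalamus and of many other regions, had 280, 253, 179 and 202 CPM at E11.5 and 18.1, 11.47, 13.3 and 10.6 CPM at E17.5 in wild type. The humanized libraries had 241, 209, 160 and 203 CPM, then 10.5, 10.9, 17.7 and 15.6 CPM. Every E11.5 library exceeded every E17.5 library, yet at least 179 reads remained on Neurog2 in each library at E17.5. The gene fell by 4.10 ± 0.24 in wild type and fell by 3.91 ± 0.20 in humanized embryos on the log2 scale (edgeR adjusted p = 6.89e-07 and 6.31e-09). The progenitor markers moved alongside: 11 of 12 were lower and 1 higher at E17.5 in wild type embryos, and their sum went from 5627 to 6081 CPM down to 1192 to 1377 CPM. The part of this shift in the fall of the neurogenins was not tested.

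**Figure D1:**
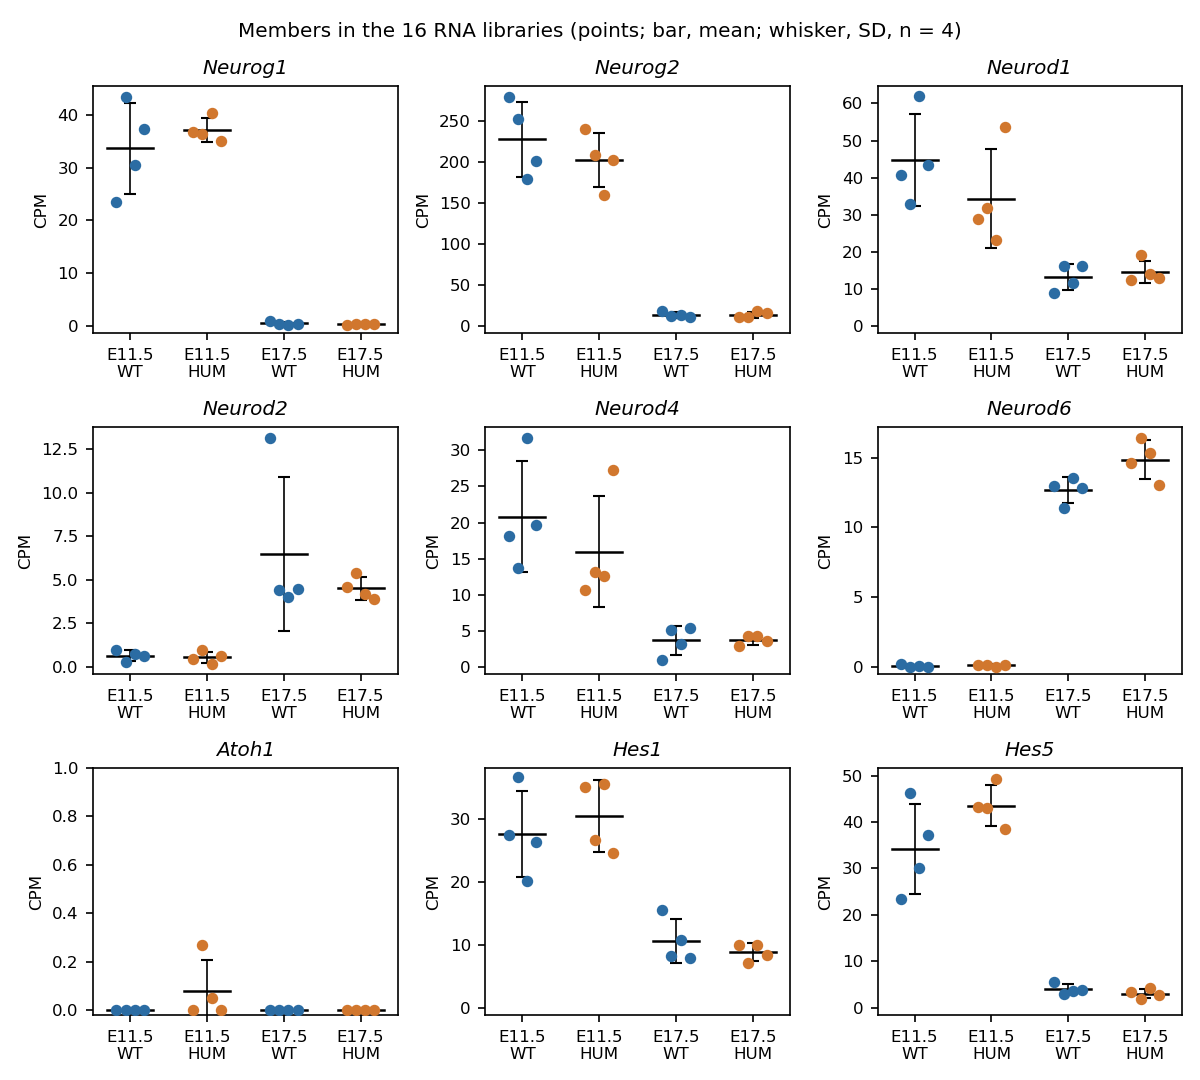
Level of each of the 9 genes in CPM (y axis, linear, scaled separately for each gene) in the 4 groups of RNA libraries (x axis; WT, wild type; HUM, humanized); points are libraries, bars the mean and whiskers the SD of 4. Neurog1, Neurog2, Neurod1, Neurod4, Hes1 and Hes5 sit higher at E11.5, Neurod2 and Neurod6 sit higher at E17.5, and Atoh1 is at or near 0 throughout.

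The neurogenin promoters kept H3K27me3 at both stages but differed in the active marks. The 250 bases before each start are given in the gene's own direction from GRCm39 (mm39), with E-boxes (CANNTG) in capitals, because these are the sites through which bHLH factors act. The Neurog1 stretch overlaps an exon of the lncRNA Gm60810, and its E-box lies near the downstream end.
Neurog1 promoter, chr13:56399977-56400226, minus strand: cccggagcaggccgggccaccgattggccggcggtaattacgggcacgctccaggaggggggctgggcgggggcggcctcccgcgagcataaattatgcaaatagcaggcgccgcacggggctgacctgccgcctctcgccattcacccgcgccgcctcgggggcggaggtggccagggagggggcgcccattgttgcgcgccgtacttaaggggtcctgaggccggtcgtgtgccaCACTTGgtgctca
Neurog2 promoter, chr3:127426198-127426447, plus strand: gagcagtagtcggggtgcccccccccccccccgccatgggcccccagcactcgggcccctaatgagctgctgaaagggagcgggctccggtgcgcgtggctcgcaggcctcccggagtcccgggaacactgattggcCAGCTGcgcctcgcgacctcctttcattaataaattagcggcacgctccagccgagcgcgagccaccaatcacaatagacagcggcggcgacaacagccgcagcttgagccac
Each held 1 E-box, a motif present in the same stretch of 64.8% of the 21738 protein-coding promoters examined. Both are rich in CpG: over 1 kb on either side of the start, the observed over expected CpG ratio was 0.682 for Neurog1 and 0.729 for Neurog2, against a median of 0.491 over all promoters.

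At the Neurog1 promoter, here the 1 kb on either side of the start, H3K27ac peaks had a fold enrichment of 9.14 and 6.87 in the wild type lists of E11.5 and none was called in the 3 lists of E17.5. The H3K4me3 peak had a fold of 20.4 and 20.1 at E11.5 and of 6.16, 8.59 and 5.64 at E17.5, while its length went from 3081 and 2904 bp to 652, 538 and 409 bp. H3K27me3 stood at 7.48 and 9.04, then at 8.53, 7.84 and 7.31, in domains of 21318 to 74436 bp. The stages thus did not overlap for the mark of active promoters, whereas the Polycomb mark overlapped. Loss of promoter H3K27ac between every E11.5 list and every E17.5 list occurred at 0.529% of all promoters, and Neurog1 was the member among them. At the Neurog2 promoter all 3 marks stayed. H3K27ac there went from 17.2 and 18.3 to 10.7, 10.8 and 14.2, a non-overlapping decrease seen at 3.06% of the promoters with peaks in all 5 lists; 78.1% of those promoters had a non-overlapping increase.

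Neurod1 and Neurod4, which act after the neurogenins as cells leave the cycle, also fell. Neurod1 (chr2:79282865-79287294, minus strand) had 40.6, 32.8, 62.1 and 43.5 CPM in wild type libraries of E11.5 and 8.83, 16.1, 11.6 and 16.1 CPM at E17.5. In humanized libraries it ranged from 23.2 to 53.6 CPM, then from 12.3 to 19.0 CPM. The stages did not overlap in either genotype, and Neurod1 fell by 1.78 ± 0.27 on the log2 scale in wild type (edgeR adjusted p = 0.000276) and fell by 1.26 ± 0.25 in humanized embryos (edgeR adjusted p = 0.000624). Neurod4 (chr10:130104021-130116132, minus strand) had 18.1, 13.7, 31.7 and 19.6 CPM, then 0.993, 5.06, 3.19 and 5.40 CPM in wild type, the lowest of these being the library of replicate 1 that stood apart. Its humanized range was 10.7 to 27.3 CPM at E11.5 and 2.88 to 4.31 CPM at E17.5. Neurod4 fell by 2.52 ± 0.46 in wild type and fell by 2.12 ± 0.30 in humanized embryos (edgeR adjusted p = 0.000922 and 4.14e-05), and without that library it fell by 2.21 ± 0.28 in wild type (edgeR adjusted p = 1.54e-05).

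At E11.5 these 2 genes were highest in the same libraries. Wild type replicate 3 had the highest Neurod1 (62.1 CPM), Neurod4 (31.7 CPM) and neuronal marker sum (1704 CPM, against 909 to 1352 CPM) of its group. Humanized replicate 4 had the highest Neurod1 (53.6 CPM), Neurod4 (27.3 CPM) and neuronal sum (1429 CPM, against 804 to 1140 CPM) of its own. The part of neuron content in the spread of the 2 genes was not tested. Neurod1 shares 4265 bp with the same-strand gene Cerkl, and reads that fall on both are counted for neither.

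The promoters of this pair differed in nearly every respect. Neurod1 carried all 3 marks at both stages, with H3K27ac at 6.46 and 6.29 at E11.5 and at 12.1, 11.2 and 7.46 at E17.5, a non-overlapping increase in the direction taken by 78.1% of such promoters. Neurod4 carried no H3K27ac at either stage, as did 38.8% of promoters. Its H3K4me3 went from 8.31 and 7.42 at E11.5 to 3.37 and 4.17 in 2 of the 3 lists of E17.5, with no peak in the other. A weak H3K27me3 peak (3.05, 2.53 and 2.49) was called in each wild type list of E17.5 and in none of the humanized ones. The Neurod4 promoter had the lowest CpG ratio of the 9, 0.189, above that of 20.8% of promoters.

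Neurod2 and Neurod6, factors of maturing neurons best known from cortical excitatory neurons, moved the other way. Neurod6 (chr6:55654807-55658326, minus strand) had 4, 0, 1 and 0 reads in the wild type libraries of E11.5 and 248, 209, 272 and 305 reads at E17.5, which is 12.96, 11.4, 13.5 and 12.9 CPM. Humanized libraries had 3, 3, 0 and 3 reads, then 274, 270, 273 and 205 reads. The gene thus went from at or near 0 to a level that varied little between libraries. Neurod6 passed the filter on low counts through the E17.5 libraries alone, so its test result is not independent of that filter. Its fitted rise was 7.56 ± 0.53 on the log2 scale in wild type (edgeR adjusted p = 1.51e-06) and 7.06 ± 0.31 in humanized embryos (edgeR adjusted p = 2.36e-09), and with so few reads at E11.5 the size is poorly set: without wild type replicate 1 of E11.5, which held 4 of the 5 reads, it was 9.14.

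Neurod2 (chr11:98216241-98220480, minus strand) had 19, 5, 14 and 16 reads (0.974, 0.265, 0.708 and 0.649 CPM) at E11.5 and 13.1, 4.40, 3.98 and 4.47 CPM at E17.5 in wild type. Humanized libraries had 0.155 to 0.942 CPM, then 4.59, 5.40, 4.16 and 3.89 CPM. The stages did not overlap, and the wild type value of 13.1 CPM belonged to replicate 1, the library rich in Tbr1. The gene also passed the filter on low counts through the E17.5 libraries alone, so its test result is not independent of that filter. Neurod2 rose by 3.29 ± 0.50 in wild type and by 3.02 ± 0.35 in humanized embryos on the log2 scale (edgeR adjusted p = 0.000274 and 7.63e-06). Without replicate 1 of E17.5 the wild type rise was 2.69 ± 0.31 (edgeR adjusted p = 6.54e-06).

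The neuronal markers and some telencephalic ones rose in the same libraries. Of 11 neuronal markers 10 rose in wild type embryos, and their sum went from 909 to 1704 CPM up to 4550 to 6482 CPM. Tbr1, a factor of cortical and olfactory projection neurons, had 11, 2, 13 and 6 reads at E11.5, then 837, 511, 481 and 585 reads at E17.5. In the same libraries Emx1, a marker of the dorsal telencephalon, went from 17, 27, 25 and 30 reads down to 6, 0, 1 and 0 reads. Of the 10 telencephalic markers 5 were higher, 3 lower and 2 did not pass the test at E17.5 in wild type embryos. The part of telencephalic tissue in the rise of Neurod2 and Neurod6 was not tested.

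The late NeuroD promoters gained active marks between the stages. Their upstream sequences are shown because they can be set beside those of the neurogenins: both are poorer in CpG, with a ratio of 0.468 at Neurod2 and 0.271 at Neurod6. Capitals mark E-boxes in both, and in Neurod6 also N-boxes (CACNAG on either strand, a site of Hes repressors) and the core site of Rbpj (TGGGAA on either strand), which partly overlap there. Each stretch overlaps an exon of a lncRNA, Gm71805 at Neurod2 and the antisense Gm3279 at Neurod6.
Neurod2 promoter, chr11:98220481-98220730, minus strand: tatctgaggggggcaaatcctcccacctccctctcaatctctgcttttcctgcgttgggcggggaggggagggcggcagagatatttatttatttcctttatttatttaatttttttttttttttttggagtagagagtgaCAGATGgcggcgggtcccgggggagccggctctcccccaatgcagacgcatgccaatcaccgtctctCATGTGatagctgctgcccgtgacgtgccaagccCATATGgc
Neurod6 promoter, chr6:55658327-55658576, minus strand: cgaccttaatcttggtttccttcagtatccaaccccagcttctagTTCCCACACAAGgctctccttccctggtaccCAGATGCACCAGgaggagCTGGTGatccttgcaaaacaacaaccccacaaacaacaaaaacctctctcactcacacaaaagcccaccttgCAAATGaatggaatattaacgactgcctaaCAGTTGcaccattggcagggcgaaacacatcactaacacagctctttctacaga
Each held 3 E-boxes. Neurod6 also held 3 N-boxes, a motif found in 36.5% of promoters, and 1 Rbpj core site, found in 22.8%.

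No H3K27ac peak was called at the Neurod2 promoter at E11.5, and peaks of 5.08, 4.90 and 5.44 fold were called at E17.5. H3K4me3 at Neurod2 was 5.35 and 3.90, then 9.65, 8.66 and 9.84, a non-overlapping increase shared by 34.4% of promoters with peaks throughout. H3K27me3 was 25.4 and 21.5 at E11.5, the highest of the 9 promoters, and 16.3, 12.97 and 14.7 at E17.5, a decrease shared by 45.7%. At the Neurod6 promoter no mark was called at E11.5, and all 3 were called in every list of E17.5. Their folds there were 6.29, 4.62 and 5.83 for H3K27ac, 4.79, 5.21 and 5.04 for H3K4me3 and 4.22, 3.07 and 4.09 for H3K27me3. A gain of H3K27ac in every E17.5 list from none at E11.5 occurred at 7.52% of promoters and a gain of H3K4me3 at 0.672%. Neurod6 was the member in the latter group, and Neurod2 and Neurod6 were those in the former.

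Taken as combinations of marks called in every wild type list, 5 promoters carried all 3 marks at E11.5 (Neurog1, Neurog2, Neurod1, Hes1 and Hes5), as did 6.5% of promoters. Neurod2 and Atoh1 carried H3K4me3 with H3K27me3 (11.2%), Neurod4 carried H3K4me3 alone (5.35%) and Neurod6 none (34.5%). At E17.5 all 3 marks were present at 6 promoters (Neurog2, Neurod1, Neurod2, Neurod6, Hes1 and Hes5), a state of 9.97% of promoters. Neurog1 and Atoh1 carried H3K4me3 with H3K27me3 (6.3%) and Neurod4 was called for H3K27me3 alone (2.71%). H3K27me3 was called in every list of both stages at 7 of the 9 (15.3% of promoters) and H3K4me3 at 7 (62.6%). At Neurod4 and Neurod6 H3K27me3 was called in no E11.5 list and every E17.5 list, as at 2.53% of promoters. The wild type H3K27me3 lists held 13850 and 19166 peaks at E11.5 and 27452 to 43700 at E17.5. H3K27ac was called throughout at 4, Neurog2, Neurod1, Hes1 and Hes5 (46.4%). Marks found together in bulk tissue can come from different cells. Of the 7 with H3K4me3 throughout, Neurod2 was the one with a non-overlapping increase and Neurog1 the one with a decrease, the latter shared by 7.17% of such promoters.

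**Figure D2:**
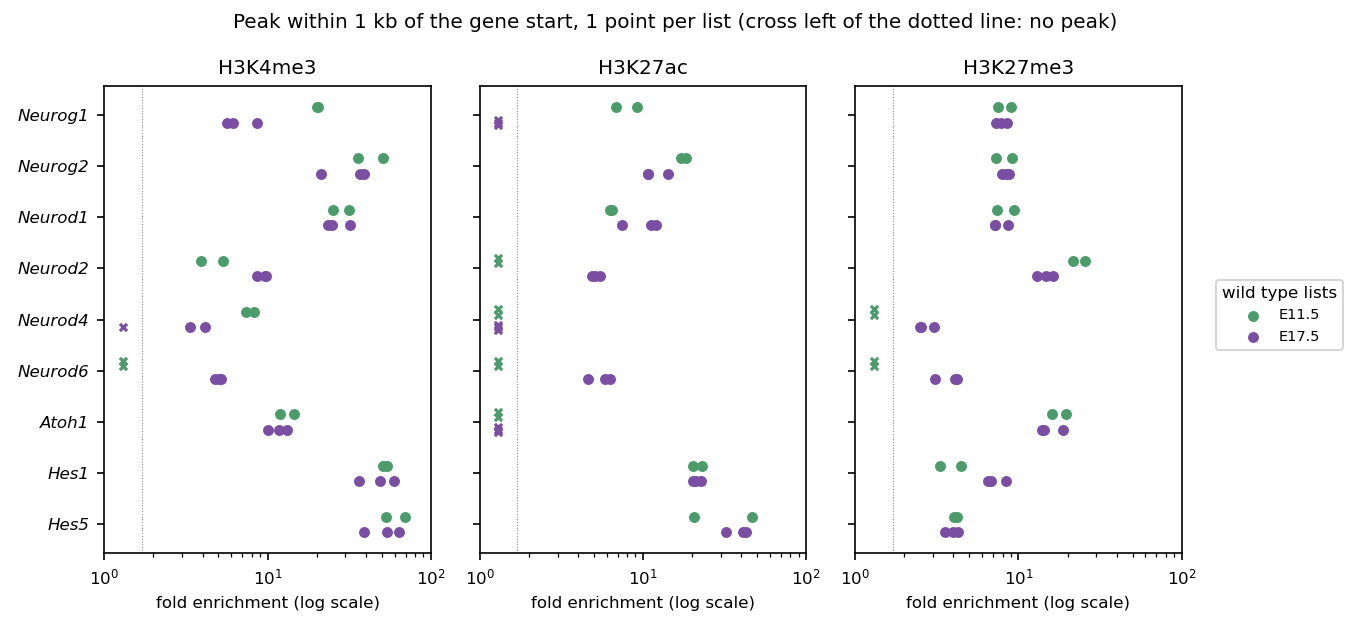
Fold enrichment over local background (x axis, log scale) of the strongest peak within 1 kb of each gene start in wild type lists, by mark; each point is a list (2 at E11.5, 3 at E17.5), and a cross left of the dotted line is a list with no peak. Neurog1 has H3K27ac at E11.5 alone, Neurod2 and Neurod6 at E17.5 alone, and H3K27me3 is present at all 9 promoters at E17.5 (19.1% of all promoters).

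Atoh1 (chr6:64706109-64708229, plus strand) was not detected in wild type libraries. It had 0 reads in all 4 at either stage, which, as 3 counts over the summed reads of the 4 libraries, allows a level of up to 0.0380 CPM at E11.5 and of up to 0.0353 CPM at E17.5. Humanized libraries had 0, 6, 1 and 0 reads at E11.5 and 0 in each at E17.5. These limits cover counting error only. Its promoter was nevertheless marked, by H3K4me3 (14.6 and 12, then 10.1, 11.7 and 13.2) together with H3K27me3 (19.6 and 16, then 18.9, 14.0 and 14.4) and without H3K27ac. That combination was present in every list at 11.2% of promoters at E11.5 and at 6.3% at E17.5.

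The Notch effectors Hes5 and Hes1 also fell between the stages. Hes5 (chr4:155045373-155046828, plus strand), a target of Notch in neural progenitors, had 23.5, 46.1, 30.2 and 37.2 CPM at E11.5 and 5.65, 3.04, 3.68 and 3.75 CPM at E17.5 in wild type. The humanized values were 43.2, 43.1, 49.3 and 38.5 CPM, then 3.36, 1.88, 4.22 and 2.74 CPM. All E11.5 libraries lay above all E17.5 libraries. Hes5 fell by 3.10 ± 0.28 in wild type and fell by 3.84 ± 0.20 in humanized embryos on the log2 scale (edgeR adjusted p = 6.98e-06 and 9.02e-09). Hes5 overlaps the antisense lncRNA Gm20421 over 763 bp, and the counts used here ignore strand. Counting the transcribed strand alone gave 1.26 to 1.64 times as many reads on Hes5, which then fell by 3.12 ± 0.26 in wild type (edgeR adjusted p = 4.16e-06).

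Hes1 (chr16:29882134-29886643, plus strand), which is also made in blood vessels and other Notch-responsive cells, had 27.5, 36.7, 20.2 and 26.3 CPM at E11.5 and 15.6, 8.32, 10.8 and 7.97 CPM at E17.5 in wild type. The humanized values were 35.1, 26.6, 35.6 and 24.6 CPM, then 10.03, 7.1, 9.95 and 8.47 CPM. The stages did not overlap, and the highest E17.5 value was again that of wild type replicate 1, the library that stood apart. Hes1 fell by 1.39 ± 0.26 in wild type and fell by 1.79 ± 0.16 in humanized embryos on the log2 scale (edgeR adjusted p = 0.00113 and 8.69e-07). Without that library Hes1 fell by 1.64 ± 0.21 in wild type (edgeR adjusted p = 1.31e-05).

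Both Hes promoters had H3K27ac and H3K4me3 peaks in every wild type list of both stages. They are shown with the core site of Rbpj (TGGGAA, or TTCCCA on the other strand), the DNA-binding partner of Notch, in capitals, along with N-boxes and E-boxes. The Hes1 stretch lies before the start of its canonical transcript, inside the annotated span of the gene, and the Hes5 stretch overlaps an exon of Gm20421.
Hes1 promoter, chr16:29883877-29884126, plus strand: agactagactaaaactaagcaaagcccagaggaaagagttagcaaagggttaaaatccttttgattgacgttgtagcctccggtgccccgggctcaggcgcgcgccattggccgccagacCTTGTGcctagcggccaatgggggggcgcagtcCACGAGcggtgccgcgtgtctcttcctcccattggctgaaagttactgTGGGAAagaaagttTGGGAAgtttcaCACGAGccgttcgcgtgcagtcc
Hes5 promoter, chr4:155045123-155045372, plus strand: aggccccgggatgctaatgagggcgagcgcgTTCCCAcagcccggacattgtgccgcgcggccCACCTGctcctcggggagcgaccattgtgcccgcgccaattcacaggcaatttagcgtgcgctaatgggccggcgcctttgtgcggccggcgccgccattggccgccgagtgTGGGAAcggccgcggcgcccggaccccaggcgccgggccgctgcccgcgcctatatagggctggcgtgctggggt
Each held 2 Rbpj core sites, counted from the start at -49 and -35 in Hes1 and at -219 and -75 in Hes5. Hes1 also held 3 N-boxes and Hes5 held 1 E-box. The CpG ratio was 0.742 at Hes1 and 0.712 at Hes5, above that of 85.5% and 81.7% of promoters.

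H3K27ac at the Hes1 promoter was 20.2 and 22.9 at E11.5, then 20.3, 22.6 and 21.0 at E17.5, and H3K4me3 was 53.8 and 51.2, then 48.5, 59.1 and 36.5. The stages overlapped in both, whereas 78.1% of promoters with H3K27ac peaks throughout had a non-overlapping increase in that mark. The Hes1 H3K27ac fold exceeded 82.4% to 87.8% of promoters with a peak at E11.5 and 48.7% to 58.9% at E17.5. For Hes5 these shares were 82.9% to 99.3% and 77.5% to 89.1%. H3K27me3 at Hes1 was 4.44 and 3.32 at E11.5, then 8.44, 6.81 and 6.48 at E17.5, in peaks of 8368 and 4635 bp that became 17084, 16379 and 16943 bp. This non-overlapping increase was shared by 21.2% of promoters with peaks throughout, and Hes1 was the member among the 7 in question. At Hes5, H3K27ac ranged from 20.4 to 46.6 and then from 32.1 to 42.9, H3K4me3 from 53.0 to 69.2 and then from 38.8 to 63.8, and H3K27me3 from 4.04 to 4.2 and then from 3.55 to 4.26. CTCF, mapped at E17.5, had peaks in each wild type list at Hes1 (5.38, 4.13 and 5.19) and Hes5, a state shared by 33.6% of promoters. The peak at Neurog2 reached 39.7 and 41.0 fold in 2 of 3 lists and lay at the downstream edge of the window, and the other 6 had 0 to 2 lists with a CTCF peak.

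Set side by side, 8 of the 9 genes passed the filter on low counts and all 8 differed between the stages in both genotypes, 2 higher and 6 lower at E17.5. Over the 18583 genes tested in wild type, 29.0% were called higher and 26.7% lower. In humanized embryos, with 18781 tested, these shares were 38.2% and 39.5%. Neurog1, Neurod2 and Neurod6 passed the filter through the libraries of 1 stage alone, the stage where each is high. Their calls are thus not independent of the filter, and the 2 genes called higher are among them. Without wild type replicate 1 of E17.5 the log2 difference was -6.78 for Neurog1, -4.30 for Neurog2, -1.63 for Neurod1, -3.31 for Hes5 and 7.54 for Neurod6, each still called (edgeR). The median log2 difference of the 8 was -2.15 in wild type, against -0.01 over all genes tested, and -1.95 in humanized embryos, against -0.04. A change of at least 2 on the log2 scale was reached by 2 genes upward and 4 downward in wild type, where 12.6% and 5.1% of all genes tested did so, and by 2 upward and 4 downward in humanized embryos, where 16% and 6.79% did.

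**Figure D3:**
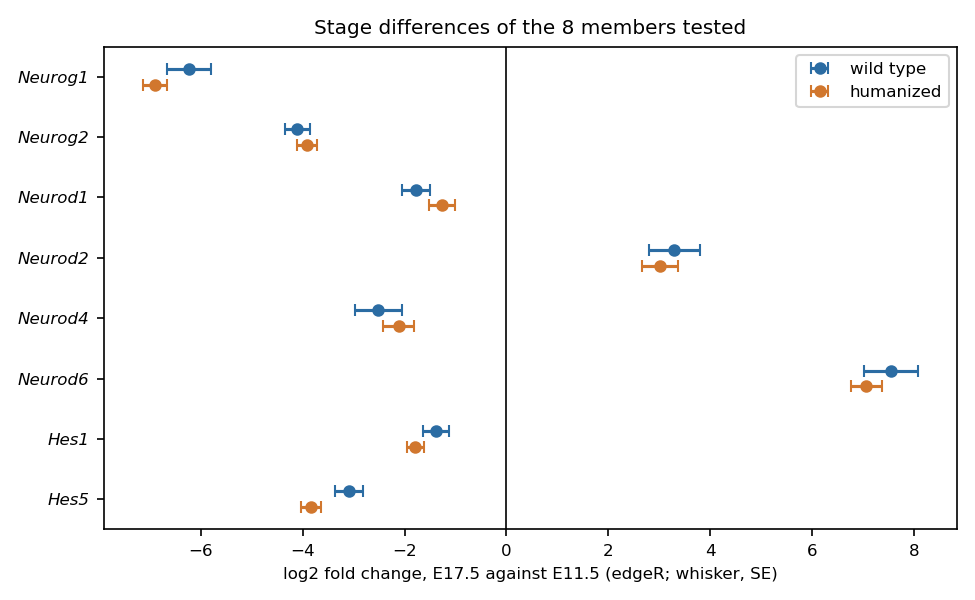
Log2 difference between E17.5 and E11.5 (x axis) of the 8 tested genes (y axis) in wild type and humanized embryos, with its standard error as whiskers. Neurog1 has the most negative value in both genotypes (-6.23 and -6.90) and Neurod6 the most positive (7.56 and 7.06).

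The order of levels within a library, on a per-length scale (RPKM, CPM for each kilobase of the canonical transcript), was reshaped between the stages. At E11.5 in wild type Neurog2 led with 89.1 ± 17.97 RPKM (SD, n = 4), followed without overlap by Hes5 (26.8 ± 7.59), and then by Neurog1 (19.96 ± 5.08), Hes1 (18.1 ± 4.45) and Neurod1 (16.4 ± 4.54), each of which overlapped its neighbour. Neurod4 (6.17 ± 2.28) lay below these, and Neurod2 (0.206 ± 0.093), Neurod6 and Atoh1 lay at or near 0. At E17.5 the highest mean was that of Hes1 (6.97 ± 2.30 RPKM). Neurod6 (5.69 ± 0.416), Neurog2 (5.22 ± 1.31), Neurod1 (4.82 ± 1.31), Hes5 (3.15 ± 0.877), Neurod2 (2.06 ± 1.41), Neurod4 (1.09 ± 0.601) and Neurog1 (0.267 ± 0.185) followed, and every neighbour in this order overlapped. In humanized embryos Neurog2 also led at E11.5 (79.3 ± 13.01 RPKM), and at E17.5 Neurod6 (6.67 ± 0.627) and Hes1 (5.82 ± 0.910) overlapped at the top.

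The genes closest to each member across the 16 libraries were found by the root mean square difference of centred log2(CPM + 0.5), so that a smaller value means a more similar course. They are descriptions over libraries that fall into 2 stages, so the stage difference dominates them. Igf2bp1, an RNA-binding protein of early progenitors, was nearest to Neurog1 (0.268), and the homeobox gene Dmbx1 followed (0.335). Phf21b (0.223) and the imprinted Peg12 (0.252) were nearest to Neurog2. Nhlh2, a bHLH factor of young neurons, was nearest to Neurod1 (0.168), with the imprinted zinc-finger gene Plagl1 next (0.184). Neurod4 was nearest to the mitotic genes Nusap1 (0.225) and Kif11 (0.235). The genes nearest to Neurod2 were Stk32b (0.214) and Ptpn5 (0.217), a striatum-enriched phosphatase, and Nwd1 was close to Neurod6 (0.231). Hes1 was nearest to Nudt1 (0.106) and Ccdc86 (0.111), and Hes5 to Rbm38 (0.192) and Pold1 (0.199), the catalytic subunit of DNA polymerase delta. Between members the smallest difference was that of Neurod1 and Neurod4 (0.453), while Neurod2 and Neurod6 differed by 1.19.

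The rest of the Notch and bHLH machinery was read from lists of related genes in wild type embryos, beside the 29.0% of all genes tested that were called higher and the 26.7% called lower. All 4 Notch receptors fell (median log2 difference -1.81), with Notch1 the most (by 2.69 ± 0.28, edgeR adjusted p = 1.88e-05). Of the 5 ligands, which signal from neighbouring cells, 3 fell and 1 rose (median -2.23): Dll3 fell by 3.36 ± 0.27 and Jag2 rose by 1.36 ± 0.20 (edgeR adjusted p = 3.53e-06 and 0.000192). Among 6 genes of the nuclear Notch complex 4 fell and 2 did not pass (median -0.94), with Maml1, a co-activator, falling by 1.86 ± 0.20 (edgeR adjusted p = 2.57e-05). Of 17 genes that process or modulate the pathway, 3 rose, 4 fell and 10 did not pass (median -0.44), shares below those over all genes. Mfng, a glycosyltransferase acting on Notch, fell by 4.08 ± 0.31 and Neurl1a, a ubiquitin ligase, rose by 2.58 ± 0.28 (edgeR adjusted p = 2.53e-06 and 2.45e-05). Of 6 tested other Hes, Hey and Notch target genes 3 fell, 1 rose and 2 did not pass (median -1.10). The feedback inhibitor Nrarp fell by 2.78 ± 0.26 (edgeR adjusted p = 8.60e-06). Hes7, with a fitted difference of 3.29 ± 0.47, and Eomes below passed the filter on low counts through the E17.5 libraries alone. Bhlhe23, one of the other bHLH activators that fell, passed through those of E11.5 alone. The calls of these genes are not independent of the filter.

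Among 11 tested other neural bHLH activators, 7 fell, 1 rose and 3 did not pass (median -1.87). Tal2, a factor of GABAergic neurons of the midbrain and caudal diencephalon, fell by 7.09 ± 0.34, and Olig1, an oligodendrocyte lineage factor, rose by 3.06 ± 0.44 (edgeR adjusted p = 3.12e-07 and 0.000176). Of 7 E proteins and Id inhibitors, the partners and the dominant-negative competitors of the proneural factors, 4 fell, 1 rose and 2 did not pass (median -1.94). The E protein gene Tcf3 fell by 2.45 ± 0.26 and Id4 rose by 2.41 ± 0.18 (edgeR adjusted p = 2.27e-05 and 2.21e-06). Of 14 genes known to act downstream of proneural factors, 8 fell, 4 rose and 2 did not pass (median -0.99). Gadd45g, switched on in cells leaving the cycle, fell by 3.28 ± 0.25 (edgeR adjusted p = 2.24e-06), and Eomes, a factor of intermediate progenitors and some forebrain neurons, had a fitted difference of 4.81 ± 0.50. Eomes was also highest in wild type replicate 1 at E17.5, at 16.6 against 4.97 to 9.21 CPM in the others. In humanized embryos, where 38.2% and 39.5% of all genes tested were called higher and lower, more of the modulators were called, 4 higher and 10 lower of 17. The counts of higher and lower genes there were 0 and 4 for receptors, 1 and 4 for ligands, 1 and 5 for the nuclear complex and 1 and 5 for other Hes, Hey and target genes. They were 1 and 8 for other bHLH activators, 2 and 5 for E proteins and Id inhibitors and 4 and 8 for downstream genes. In humanized embryos Hes3 and Nrarp passed the filter on low counts through the E11.5 libraries alone. Hes7 and Eomes passed it through those of E17.5 alone. Calls of these genes are not independent of the filter, and the gene called higher among other Hes, Hey and target genes is Hes7.

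**Figure D4:**
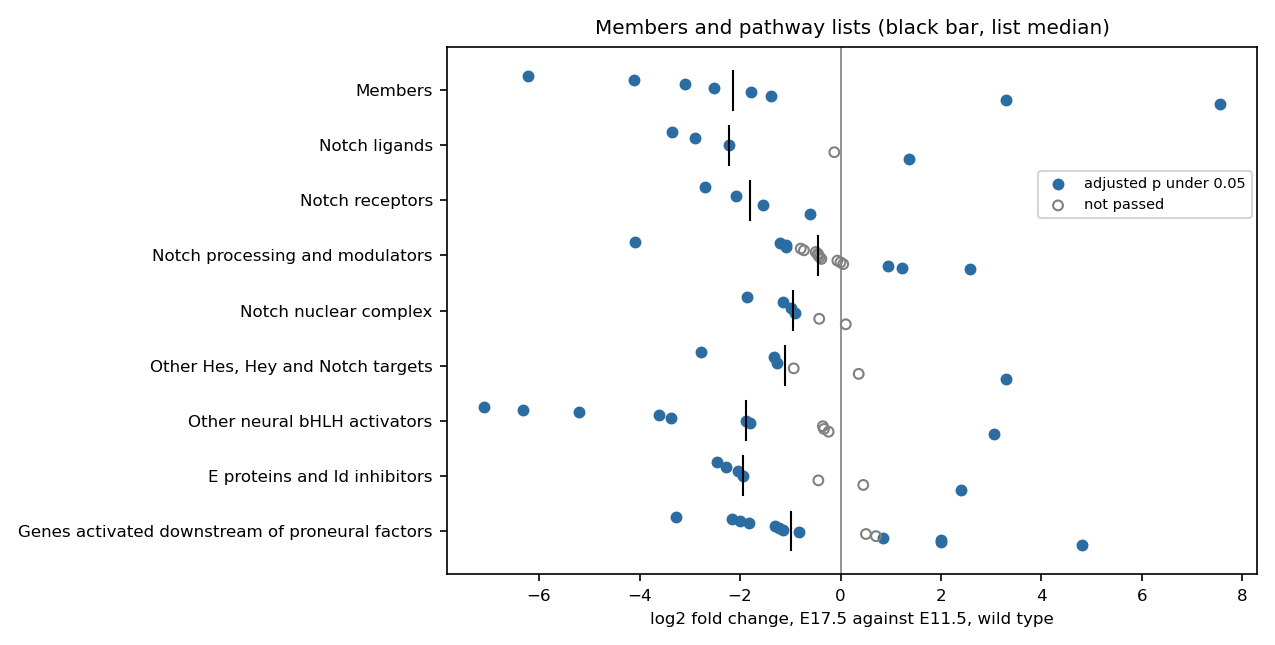
Log2 difference between E17.5 and E11.5 in wild type embryos (x axis) of every tested gene of the 9 genes' list and of 8 lists of related genes (y axis); filled points have an adjusted p under 0.05 in edgeR, open points do not, and black bars are list medians. The list medians lie between -2.23 (Notch ligands) and -0.44 (Notch processing and modulators), and 6 of the 8 related lists hold at least 1 gene that rose.

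Whether the humanized hs754 allele altered these genes was read from humanized against wild type embryos at each stage. None was called at either stage: 7 of the 9 could be tested at each stage, and edgeR called 0.0% of the 17816 and 18763 genes tested, with 1058 and 207 at an unadjusted p under 0.05. DESeq2 called 2 genes at E11.5, Serinc5 and Ppp3cc, and 1 at E17.5, 4931408D14Rik, none of them among the 9. The CPM values of the genotypes overlapped for every one of the 9 at each stage; over all genes tested they did not overlap for 2.5% and 1.21%.

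The 95% intervals of these differences varied in width between the genes, and the widest at E11.5 was that of Neurod2, with 3 to 21 reads per library. At E11.5 the log2 difference of Hes5 was 0.32 (95% interval -0.08 to 0.72) and that of Neurog2 was -0.19 (-0.54 to 0.15). Neurog1 stood at 0.12 (-0.25 to 0.48), Hes1 at 0.12 (-0.29 to 0.52), Neurod1 at -0.40 (-0.99 to 0.19), Neurod4 at -0.40 (-1.12 to 0.32) and Neurod2 at -0.27 (-1.37 to 0.82). At E17.5 Neurod6 differed by 0.22 (-0.15 to 0.59), Neurog2 by 0.02 (-0.53 to 0.57) and Neurod1 by 0.14 (-0.39 to 0.67). The widest intervals there were those of Neurod2 (-0.53, from -1.39 to 0.32) and Neurod4 (0.03, from -0.90 to 0.96). Hes1 and Hes5 differed by -0.27 (-0.82 to 0.28) and -0.41 (-1.08 to 0.26). Wild type replicate 1 lay outside the other 3 of its group for each of the 7 genes other than Neurod6 that had reads. Without that library the differences were 0.07 for Neurod2, -0.29 for Neurod4, -0.024 for Hes1, -0.20 for Hes5, 0.21 for Neurog2, -0.015 for Neurod1 and 0.23 for Neurod6 (edgeR adjusted p = 0.9999 for each). With all libraries the adjusted p ranged from 0.577 to 0.799 at E11.5 and from 0.808 to 0.980 at E17.5 (edgeR).

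The change of the genotype difference between the stages was tested in all 16 libraries, and edgeR called 0.0% of 20234 genes, with 1610 at an unadjusted p under 0.05 and none by DESeq2. Among the 9, Hes5 had the smallest unadjusted p: its genotype difference was lower at E17.5 than at E11.5 by -0.74 ± 0.35 (95% interval -1.47 to -0.01; edgeR unadjusted p = 0.0470, adjusted p = 0.462). Without wild type replicate 1 of E17.5 the value was -0.53 (edgeR unadjusted p = 0.111).

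The promoter states were alike in humanized lists, apart from Neurod4 at E17.5, where neither H3K4me3 nor H3K27me3 was called in any of the 3. Of 42 combinations of gene, mark and stage with peaks in every list of both genotypes, the folds of the genotypes did not overlap in 7. At E17.5 Neurog2 H3K27ac was 6.64 to 8.23 in humanized against 10.7 to 14.2 in wild type lists, a lower value shared by 14.6% of such promoters. Atoh1 H3K4me3 was 6.04 to 7.47 against 10.1 to 13.2 (8.08% of promoters lower). At E11.5 Neurog1 H3K27ac was 11.04 and 11.4 against 6.87 and 9.14, with Hes1 the other member higher in this mark (37.7% of promoters higher). Neurog1 H3K4me3 was lower (23.4%), Neurod4 H3K4me3 higher (12.3%) and Neurod1 H3K27me3 higher (31.4%). An exact permutation test with 2 or 3 lists a side cannot reach 0.05, and these differences are given without a test.

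H3K27ac beyond the promoters, from 1 to 50 kb of each start, was counted as regions present in every wild type list of a stage. A promoter or a nearby gene other than the named one can own such a region, so distance is the sole link. Over the 9 genes 11 regions were present at E11.5 alone, 10 at E17.5 alone and 10 at both, and 40 more were present in some lists only. The E11.5 count rests on both lists of that stage: with replicate 1 or 2 left out, 23 or 25 regions were present at E11.5 alone. Neurog1 had 5 regions of E11.5 alone, more than 99.6% of all protein-coding genes (median 0), 3 of E17.5 alone and 1 at both. Each of the 5 also overlapped H3K27me3 peaks in both E11.5 and all 3 E17.5 wild type lists.

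The strongest of the 5 lies 44124 bp downstream of the Neurog1 start at chr13:56355255-56356449, overlaps no annotated gene, and had folds of 12.4 and 16.1 in wild type and a peak in both humanized lists of E11.5. Its middle 200 bases are given from the plus strand of mm39 with E-boxes in capitals, of which the printed stretch holds 3 and the whole 1195 bp hold 11.
Neurog1 downstream region, chr13:56355753-56355952, plus strand: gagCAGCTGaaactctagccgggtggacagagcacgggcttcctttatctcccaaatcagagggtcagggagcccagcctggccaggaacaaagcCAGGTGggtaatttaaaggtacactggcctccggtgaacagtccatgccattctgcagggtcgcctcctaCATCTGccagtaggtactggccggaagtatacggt
A region at chr13:56368568-56371022, in the lncRNA Neudnr, was present at both stages, at 18.3 and 13.8 and then at 7.05, 4.43 and 4.19. The 2 regions upstream of the gene, at -6608 and -7931 bp from the start in the lncRNA Gm61343, had folds of 7.85 and 9.68 and of 5.31 and 10.9 at E11.5. The 3 regions of E17.5 alone around Neurog1 had folds of 3.02 to 7.07, a range that overlapped the 4.21 to 16.1 of the 5 regions of E11.5 alone.

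Around Neurod2 there were 3 regions of E17.5 alone, 1 of E11.5 alone and 2 at both. These counts exceeded those of 86.8%, 87.0% and 70.3% of all protein-coding genes. The strongest of E17.5 alone (17.6, 17.2 and 14.7) lay 44785 bp downstream at chr11:98173422-98177969, in the lncRNA Gm20644, and was called in all 3 humanized lists of E17.5. The one of E11.5 alone, at -42168 bp, lay in Stard3, as did a region present at both stages. Neurod6 had 1 region of E17.5 alone, 4555 bp downstream (4.35, 5.05 and 6.07), and Neurod4 had 2 of E11.5 alone, at -2029 and -13649 bp. Neurog2 had 1 region, present at both stages 8714 bp downstream, at 9.88 and 8 and then at 5.36, 5.51 and 4.06. Neurod1 likewise had 1 at both, Hes1 had 1, 1 and 2 of E11.5 alone, E17.5 alone and both, Hes5 had 2, 2 and 3, and Atoh1 had none.

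**Figure D5:**
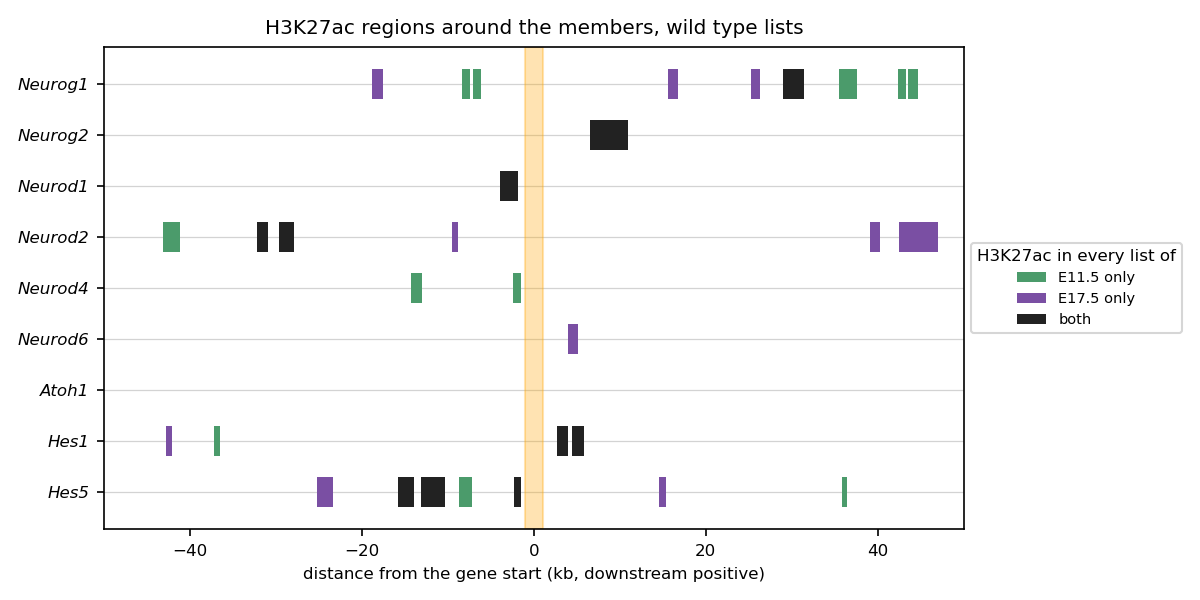
H3K27ac regions within 50 kb of each gene start in wild type embryos (x axis, kb from the start in the direction of transcription; the orange band is the promoter window); bar width is the region's length, and colour shows whether every list of E11.5 alone, of E17.5 alone or of both stages has it. Neurog1 carries 5 of the 11 regions of E11.5 alone, and Neurod2 and Neurog1 carry 3 each of the 10 of E17.5 alone.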

How the data were processed

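The study profiled RNA by polyA RNA-seq and chromatin by ChIP-seq in diencephalon; the 16 RNA samples and 36 ChIP samples were used and the 24 inputs were not analysed here. The authors aligned RNA reads to mm39 with STAR 2.7.9a and deposited raw counts of reads on each gene, unstranded (used here) and for each strand. For ChIP-seq the authors aligned with Bowtie2 2.4.2 (the humanized samples to an edited genome), removed duplicate and multi-mapping reads and called peaks per replicate with MACS2 2.2.7.1. The deposited peak lists give a fold enrichment over local background, used here, a -log10 p, a -log10 q and a score computed by the authors' caller. For H3K27me3 the files are in broad-peak format. According to the methods, the H3K27ac antibody lot also recognizes H2BK5ac. Values of peaks have no known read depth here.

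Lines that name no gene held 48.1% to 58.4% of reads and were left out. Genes were filtered with filterByExpr, scaled by TMM and tested with edgeR 4.0.16 (limma 3.58.1, R 4.3.3), E17.5 against E11.5 within a genotype, humanized against wild type within a stage, and their interaction, with Benjamini-Hochberg adjustment over all genes tested and a threshold of 0.05. CPM used TMM-scaled library sizes. The tests were tested on simulated data. Replicates differed by more than sampling noise (a mean chi-square per gene of at least 7.31 for every pair of libraries within a group). Per the methods each pool came from 1 litter, so p-values measure the spread between pools. Names and positions came from GENCODE M39 on GRCm39, in which 98.8% of gene IDs matched (the authors counted on M31), and sequences from that genome. A promoter mark was a peak with at least 1 bp within 1 kb of the start of the canonical transcript, called where every list of a stage had it. Peaks and figures were handled with Python 3.11.15, numpy 2.4.6, pandas 2.3.3, scipy 1.17.1 and matplotlib 3.10.9.

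Named genes were the 9, in each related list the called genes with the most positive and most negative change in wild type, and the 2 protein-coding genes nearest to each of the 9, of which 1 is not reported here; the few genes called between the genotypes, and Tbr1, Emx1 and Eomes as values by library, were named after their values were seen. The 9 genes and all lists were chosen with earlier results of these data known. Alternatives were DESeq2 1.42.0, its size factors, no filter, the strand column, all 16 samples in one fit, the replicate number as a block, each replicate left out, and for peaks other windows, a -log10 q of at least 5, a 50% overlap, the humanized lists and, chosen after seeing the data, the outermost 5' end of the gene. Pairing by number was checked by the correlation of deviations from group means.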

Additional observations from a re-analysis of the deposited data

Results flagged for a closer look

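Of 33 sets of 4 replicate values of the 9 genes, 3 had a sample whose gap to its nearest neighbour exceeded Dixon's limit (0.829 of the whole range); chance flags about 5% of such sets. Neurod2 stood at 13.1 CPM in wild type replicate 1 of E17.5, with the other 3 at 3.98 to 4.47 CPM. Neurod4 stood at 27.3 CPM in humanized replicate 4 of E11.5, with the others at 10.7 to 13.2 CPM. Neurod6 had 0 CPM in humanized replicate 3 of E11.5, where each of the others had 3 reads.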

How the results depend on the processing

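In every alternative run, the 8 genes tested between the stages kept their direction and their call in both genotypes, and none of the 9 was called between the genotypes or in the interaction. Genotype differences close to 0 changed sign: without the filter on low counts Neurog2 at E17.5 was -0.0084, and over the fits that left out a replicate in turn the log2 differences ran from -0.020 to 0.26 for Neurog1, from -0.67 to 0.0014 for Neurod2 and from -0.0061 to 0.28 for Hes1 at E11.5, and from -0.10 to 0.21 for Neurog2, from -0.023 to 0.27 for Neurod1, from -0.69 to 0.067 for Neurod2 and from -0.29 to 0.29 for Neurod4 at E17.5. The interaction of Neurod2 ran from -0.57 to 0.32. Over all genes, DESeq2 called 1 gene higher and 1 lower at E11.5 and 1 higher at E17.5, and the fit of all 16 samples called 1 higher at E11.5. Promoters of the 9 with CTCF in every list fell from 2 to 1 with a 500 bp window and to 1 with the outermost 5' end. Surrounding regions of E11.5 alone numbered 5 within 20 kb and 12 to 25 when a list was left out, 23 without E11.5 replicate 1 and 25 without replicate 2, since fewer lists must then agree. Regions of E17.5 alone numbered 6 with a -log10 q of at least 5, 5 within 20 kb and 4 in the humanized lists. The labels do not tie the replicate numbers to a shared litter or batch, and the correlations of deviations were not all over 0.1 in any comparison (-0.45 to 0.48 in all). At E17.5 the genotypes came nearest to pairing, with 0.466, 0.484, 0.051 and 0.154. With the number as a block, Neurod6 rose by 7.60 and Hes5 fell by 3.09 in wild type, and all 8 stage calls held. For Neurod6 at E11.5, Neurog1 at E17.5 and Atoh1, few reads limit the precision.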

Other observations

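Marker lists of other cell types give the surroundings of the 9 genes in wild type embryos. Of 8 astrocyte markers 6 rose between E11.5 and E17.5, with a fitted log2 difference of 6.76 ± 0.72 for Aqp4, a water channel of astrocyte end feet that passed the filter on low counts through the E17.5 libraries alone, as did Gfap, S100b and Sox10, and all 6 markers of the oligodendrocyte lineage rose. Of 13 diencephalic markers 3 rose and 7 fell. Rora, a nuclear receptor of thalamic neurons, rose by 4.69 ± 0.44 and Irx3, a patterning factor, fell by 3.21 ± 0.34 (edgeR adjusted p = 1.01e-05 and 2.35e-05). Of 6 tested midbrain and hindbrain markers 1 rose and 3 fell. Of 6 microglial markers 1 rose and 1 fell, of 5 endothelial markers 1 rose, and of 6 red blood cell genes 1 rose and 1 fell. Lists added after values were seen, given without a test, summed in wild type libraries to 1.03 to 1.62 CPM and then 2.24 to 5.90 CPM for eye, to 55.0 to 87.5 CPM and then 25.8 to 41.1 CPM for pituitary, to 18.8 to 22.3 CPM and then 6.49 to 12.1 CPM for sensory ganglia, which express Neurog1 and Neurod1, and to 1.72 to 4.46 CPM and then 11.49 to 21.5 CPM for the pineal gland, which expresses Neurod1.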
